A study of Mus musculus with 16 samples.

Results

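The comparison described here set mouse embryonic fibroblasts (MEFs) lacking the stress transcription factor CHOP against wild-type MEFs after both had been given the proteasome inhibitor MG132. It comprised 8 arrays, 4 from CHOP knockout and 4 from wild-type cells, of 16 arrays in the series. The arrays were chosen by their titles, and values were read across 11047 autosomal genes, 1 probe set per gene. The treated cells of both genotypes received 1 µM MG132 for 8 hours. The other 8 arrays, 4 per genotype, came from unstressed plates harvested alongside, which the sample descriptions call a DMSO vehicle control and the treatment field leaves untreated. They are called untreated below. The genotypes are given as CHOP+/+ and CHOP-/-, and every sample was a separate culture plate. The labels do not say how many embryos, isolations or clones the plates of a genotype came from. The p-values therefore measure the spread between plates, and the genotype cannot be told apart from any other difference between both cell stocks.

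CHOP, encoded by Ddit3, is a C/EBP-family bZIP transcription factor whose synthesis rises when eIF2 kinases phosphorylate the translation factor eIF2 in the integrated stress response. Phosphorylated eIF2 lowers general protein synthesis but favours translation of ATF4, which induces Ddit3, and ATF4, CHOP and ATF5 then act on partly shared genes of amino acid supply, feedback and cell death. Inhibitors of the proteasome such as MG132 let misfolded and short-lived proteins accumulate and activate this pathway together with the heat shock, NRF2 and other stress programmes. The series was made to find genes that depend on CHOP under proteasome inhibition.

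Signals are linear intensities in the authors' deposited table, where every array has the same trimmed mean. Differences are knockout minus wild-type on the log2(signal + 16) scale, with the standard error (SE) of the linear model, and "higher", "lower" and "passed" refer to a Benjamini-Hochberg (BH) adjusted p of limma below 0.05 over all 11457 tested genes. Between arrays of a group, r over all tested genes lay between 0.985 and 0.992. The median signal of an array was 94.6 ± 3.62 (SD, n = 4) in treated knockout and 102.2 ± 8.88 in treated wild-type cells, with an exact permutation p of 0.20. The upper quartile was lower in the knockout, at 799.9 against 832.9 on average, with no overlap (exact permutation p = 0.0286, the smallest that 4 against 4 can give, BH 0.114 over 4 array measures). The deposited table holds no detection calls, so the size of a difference is uncertain where one genotype lies below the array median, between 89.8 and 113.1 over the 16 arrays. The cell stocks differed in sex-linked transcripts. Xist averaged 9777 in treated knockout and 382.2 in treated wild-type cells, and Eif2s3y averaged 18.4 and 7092. Of 11 fibroblast markers, 10 lay above the array median on all 16 arrays, and their summed signal ran from 95650 to 100900 on the treated knockout arrays and from 120500 to 132400 on the treated wild-type arrays.

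The targeted gene was measured first. Ddit3 gave signals of 8181, 6891, 8087 and 7739 on the 4 treated wild-type arrays and of 429.8, 394, 418 and 342 on the 4 treated knockout arrays, so that the groups stood far apart. The difference was -4.23 (SE 0.087), adjusted p = 3.9e-19, or -2.10 over all Ddit3 probe sets. Without MG132 the wild-type arrays read 887, 1054, 998 and 1127 and the knockout averaged 368 ± 24 (SD, n = 4), and MG132 thus raised Ddit3 by 2.91 in wild-type cells, while the change of 0.10 in the knockout did not pass. The labels do not give the deleted exons or where the probe set lies, so the signal left in the knockout says nothing of functional CHOP. ATF5, a bZIP factor known to be induced by CHOP, is encoded by Atf5. Its signals were 1134, 1451, 1334 and 1539.6 in treated wild-type and 682, 736, 753 and 788 in treated knockout cells, which did not overlap and differed by -0.86 (SE 0.12). The Atf5 difference was larger without MG132, at -1.79, as the wild-type signal fell from 2516 ± 548 to 1364 ± 175 while the knockout signal was 703 ± 51.5 and 739.9 ± 44.4.

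**Figure D1:**
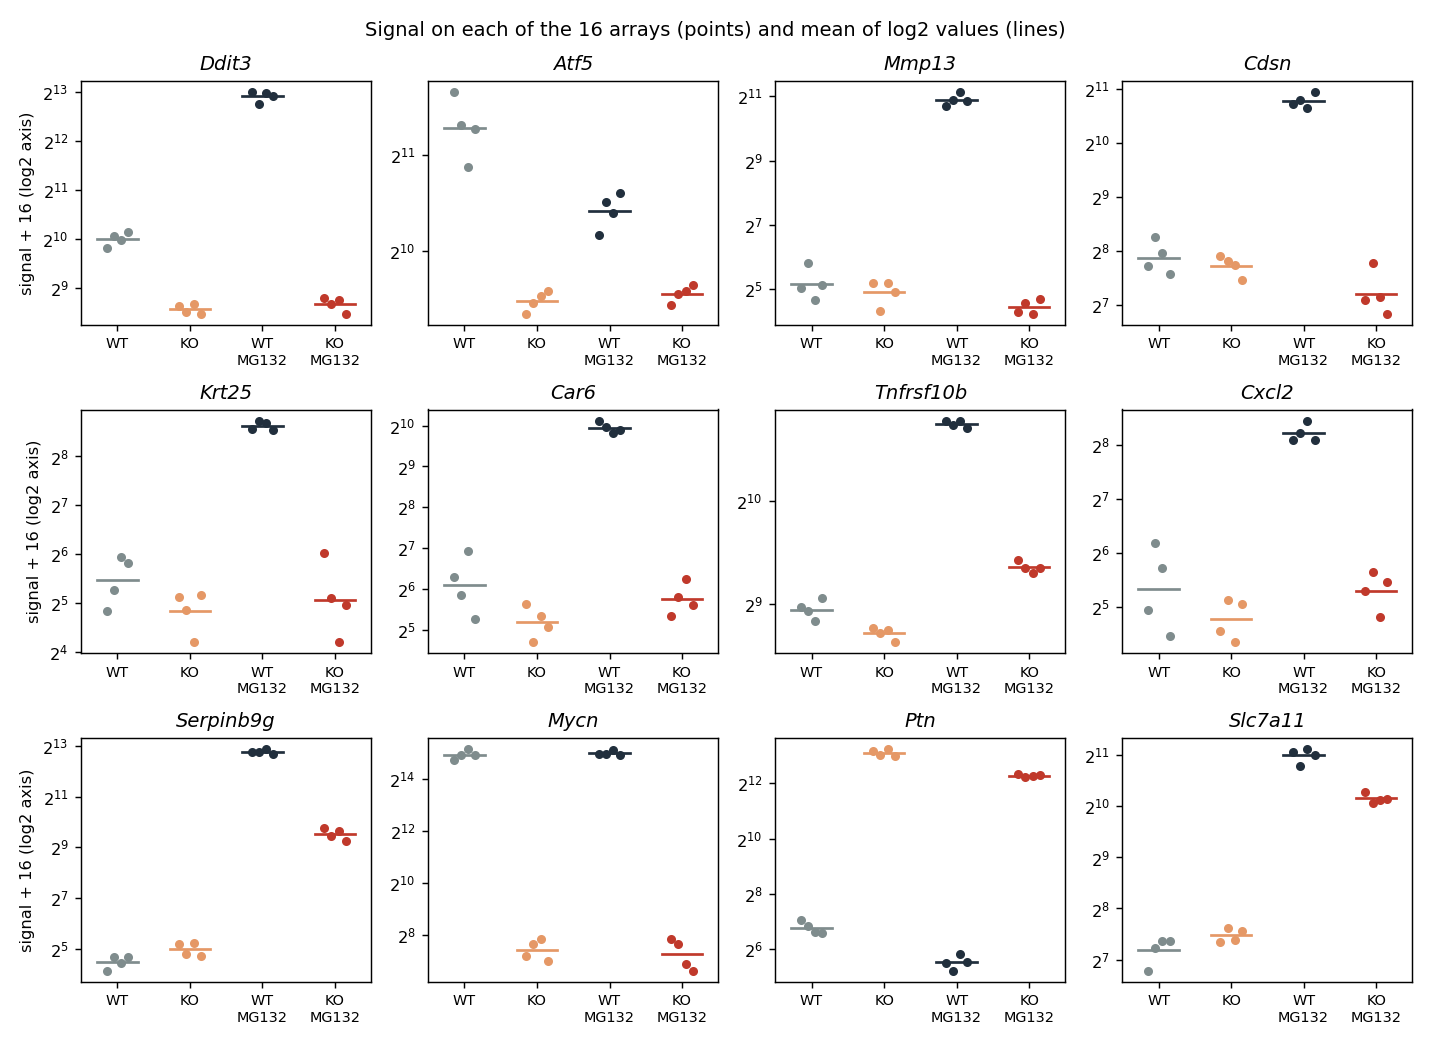
Signal plus 16 on a log2 axis for 12 genes on each of the 16 arrays, in untreated wild-type (WT) and knockout (KO) and MG132-treated WT and KO cells, with each panel on its own scale. Points are single arrays and lines are means of the log2 values. Ddit3, Mmp13, Cdsn, Krt25, Car6, Tnfrsf10b and Cxcl2 stood highest on the 4 treated wild-type arrays, whereas Mycn and Ptn differed between genotypes with and without MG132.

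With MG132, 3394 autosomal genes were higher in the knockout (30.7% of 11047) and 3098 were lower (28%), 58.8% in all. The 4 arrays of each genotype did not overlap for 3071 genes higher in the knockout (27.8%) and 2826 genes lower (25.6%). Most differences were small: the median absolute difference was 0.31, and 5% of genes lay below -1.16 and 5% above 0.93. A difference of at least 2-fold was found for 476 genes higher (4.31%) and 683 lower (6.18%), and of at least 4-fold for 141 and 202. The higher share among called genes was 52.3%, and it was 63.4% (3890 higher, 2242 lower) after centring each array on its median, which moved the median of all genes from 0.02 to 0.12. Every count below of list members higher or lower with MG132 is to be read against the shares of 30.7% and 28%.

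Most of the larger differences were also present without MG132. The untreated contrast, which shares no array with the treated one, called 3150 genes higher (28.5%) and 2961 lower (26.8%), 55.3% in all. MG132 itself changed 64.1% of the autosomal genes in wild-type and 62.6% in knockout cells by the same test, a background for the changes with MG132 given for single genes below. Of the 476 genes at least 2-fold higher with MG132, 438 (92%) were also higher untreated, 37 did not pass there and 1 was lower. Of the 683 genes at least 2-fold lower, 573 (83.9%) were also lower untreated, 99 did not pass and 11 were higher. Across the 11047 genes, which are not independent replicates, the differences with and without MG132 had Pearson r = 0.825 and Spearman rho = 0.681. The interaction, meaning the treated difference minus the untreated one, passed for 1567 genes above 0 (14.2%) and 1558 below 0 (14.1%), 28.3% in all. It had the sign of the treated difference for 225 of the 683 genes at least 2-fold lower (32.9%) and for 89 of the 476 at least 2-fold higher (18.7%). Untreated counts of list members below are to be read against 28.5% and 26.8%, and interaction counts against 14.2% and 14.1%. After centring each array on its median, the interaction passed for 1596 genes above 0 and 685 below 0. Interaction counts of lists were not repeated with that centring.

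**Figure D2:**
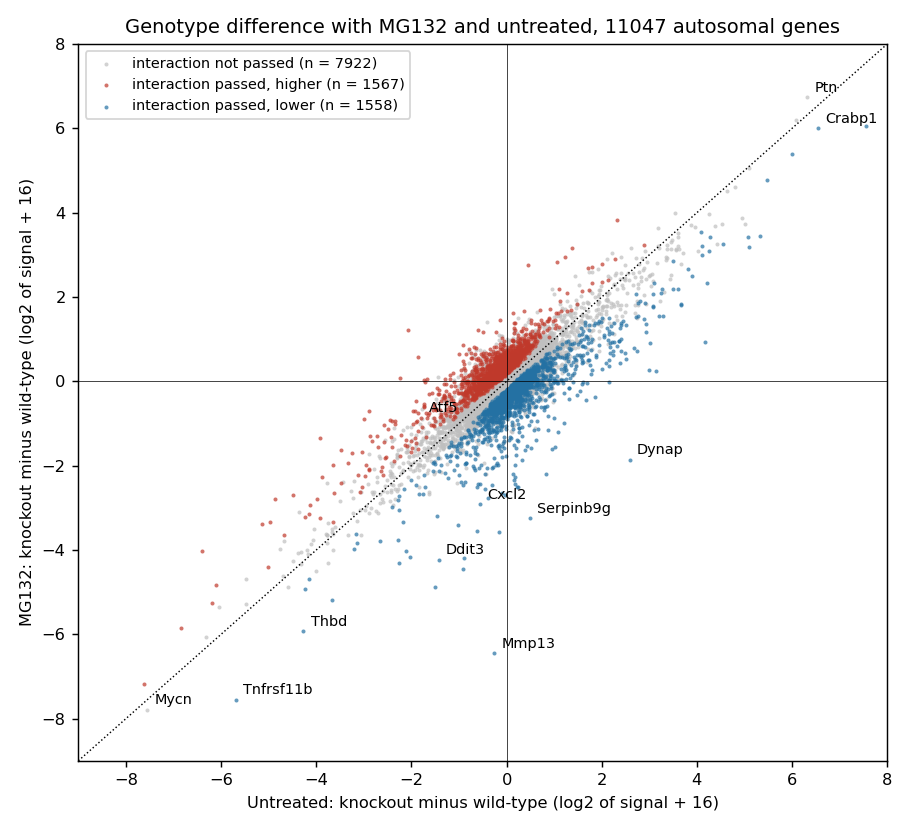
Knockout minus wild-type difference with MG132 (vertical axis) against the same difference untreated (horizontal axis), both on the log2(signal + 16) scale, for 11047 autosomal genes. Colours show the interaction call and the dotted line marks equal differences: most genes lie along it, whereas Mmp13 and Serpinb9g lie near or right of 0 untreated and far below 0 with MG132.

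Differences were not spread evenly over the genome. On chromosome 8, 338 of 630 genes were higher in the knockout and 88 lower, and the median difference was 0.271. Chromosomes 15, 9 and 19 leaned the same way, with medians of 0.229, 0.182 and 0.179. On chromosome 1, 97 of 640 genes were higher and 321 lower, and the median was -0.234. Chromosomes 13, 12 and 7 followed with medians of -0.213, -0.197 and -0.148. The chromosome's median deviation from all autosomal genes, taken per array, was higher on all 4 knockout arrays than on all 4 wild-type arrays for 9 autosomes, lower on all 4 for 9, and overlapping for chromosome 16. For the 18 without overlap the exact permutation p was 0.0286, the smallest possible (BH 0.0302 over 19 chromosomes). Some of these hardly differed in size, with median differences of 0.001, 0 and -0.004 on chromosomes 2, 11 and 18. The medians without MG132 were close to those with it (r = 0.98 over 19 chromosomes), and the median interaction per chromosome lay between -0.058 and 0.035. DNA copy number was not measured, and its part in these shifts was not tested. Subtracting each chromosome's median, an alternative chosen after seeing the data, gave 3159 genes higher and 3025 lower.

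**Figure D3:**
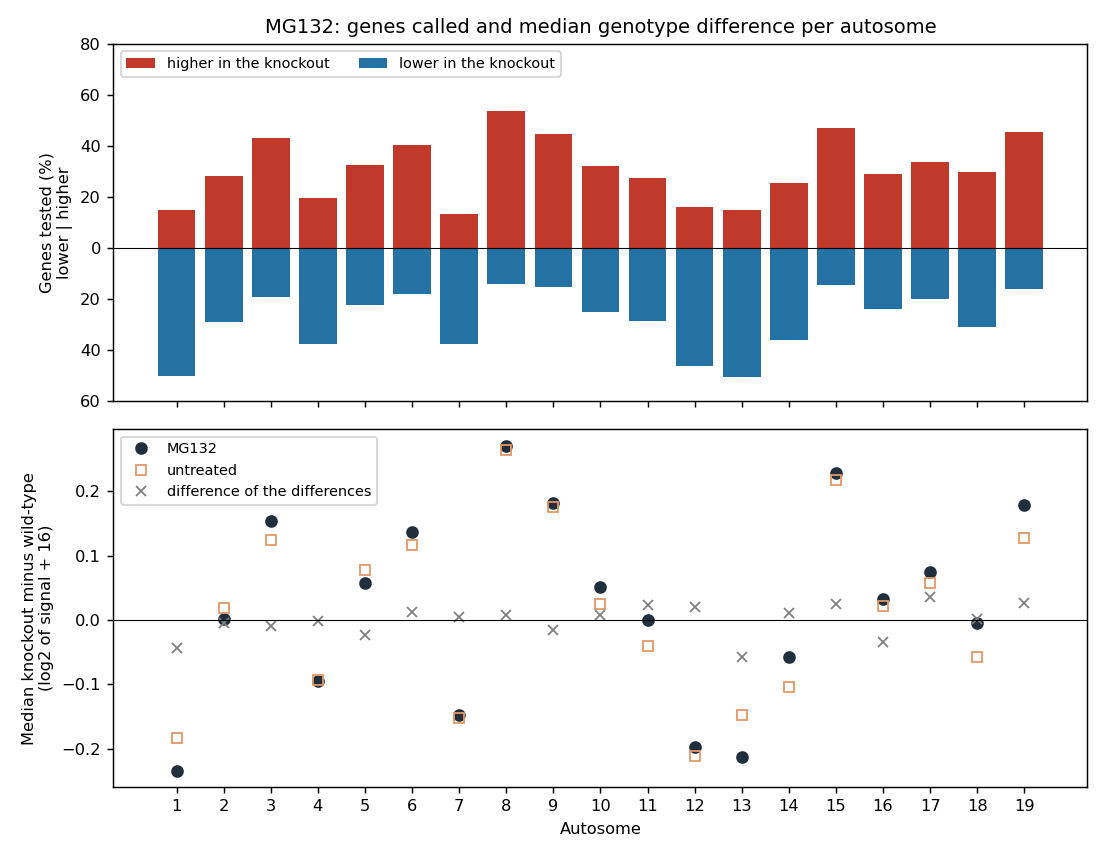
Upper panel: percentage of tested genes per autosome called higher (upwards) or lower (downwards) in MG132-treated knockout cells. Lower panel: median knockout minus wild-type difference per autosome with MG132 (filled circles), untreated (squares) and their difference, the interaction (crosses), on the log2(signal + 16) scale; chromosome 8 stands highest at 0.271 and chromosome 1 lowest at -0.234.

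Ddit3 lies on chromosome 10, and among the 10 tested genes on either side of it 6 were lower and 2 higher with MG132. On the whole chromosome 139 of 557 tested genes were lower and 180 higher, against 28% and 30.7% of all autosomal genes. The immediate neighbour Mars1, which encodes cytosolic methionyl-tRNA synthetase, gave 8855, 8272, 8822 and 8768 in treated wild-type and 4469, 4609, 4913 and 4465 in treated knockout cells. These values did not overlap, and the difference of -0.91 (SE 0.045) was close to that without MG132 (-0.81). The other neighbours that passed differed less: Nemp1 by -0.56, Arhgef25 by -0.51, the endocytic receptor gene Lrp1 by -0.47, Pip4k2c by -0.16 and Stat6 by -0.14, against 0.44 for Shmt2, a mitochondrial serine-to-glycine enzyme, and 0.38 for Dctn2. Arhgef25 was at 0.04 without probe sets of shared or similar sequence and at -0.19 as the mean over its probe sets, neither of which passed. Lrp1 was at -0.28 on averaging. The arrays of Pip4k2c overlapped. Its call was lost under quantile normalization (-0.13), median centring (-0.06) and averaging of probe sets (-0.029), with no filter or a replicate block (both -0.16), and without any one of the 4 treated knockout arrays, WT_MG132 replicates 1 or 2 or WT_untreated replicate 2, the last 7 with values from -0.17 to -0.13. The call of Stat6 was lost under quantile normalization (-0.12), median centring (-0.04) and averaging of probe sets (-0.09), and without WT_MG132 replicate 2 (-0.11), WT_MG132 replicate 4 (-0.12) or KO_MG132 replicate 1 (-0.11).

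The largest differences separated the genotypes whether or not MG132 was present. All 12 genes with the largest higher values were also higher untreated, and the interaction passed for 4 of them. Ptn, encoding the heparin-binding growth factor pleiotrophin, gave 29, 21.6, 41.6 and 31.2 in treated wild-type and 5089.6, 4748, 4865 and 4952 in treated knockout cells. Wild-type arrays were thus all below the array median and knockout arrays all far above it, with a difference of 6.73 (SE 0.12). The value was 4.26 when the 3 probe sets of Ptn were averaged. Ankrd1, a muscle ankyrin-repeat gene and known YAP target, gave 140.4, 182, 159.7 and 159 against 13813, 12625, 12912 and 12499.5. The knockout arrays again stood far above, by 6.21 (SE 0.11). Next came Sprr1a, a cornified envelope precursor (6.06), the retinoic acid binding protein gene Crabp1 (6.01), and the glutamine transporter gene Slc38a1 (5.38, or 4.20 without probe sets of shared or similar sequence). Cd34, a surface sialomucin of progenitors and some fibroblasts, differed by 5.06, and the tissue factor pathway inhibitor gene Tfpi by 4.77. The remaining 5 were Pdzrn3 (4.60), the G protein subunit gene Gng2 (4.51), the hindlimb T-box factor gene Tbx4 (4.0), Tmem87a (3.97) and Tdrkh (3.87). The mean over the probe sets of Pdzrn3 was 2.06.

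Among the 12 largest falls, 11 were also lower untreated, Mmp13 being the exception, and the interaction passed for 8. It was below 0 for Mmp13, Tnfrsf11b, Thbd, Arg1 and Tmem267, and above 0 for Coch, Cdo1 and Stmn2. Mycn, a MYC-family transcription factor gene of embryonic tissues, gave 32379.6, 32633, 36525 and 31892 in treated wild-type and 210.3, 182, 102 and 81.4 in treated knockout cells. No array came close to those of the other genotype, and the difference was -7.79 (SE 0.21) with MG132 and -7.56 without. Averaging the 3 probe sets of Mycn gave -2.44. Tnfrsf11b, encoding osteoprotegerin, the decoy receptor of RANKL, gave 3492, 3311, 3671 and 3829 against 0.916, 2.79, 9.48 and 0.348. The knockout values were near 0, and the difference of -7.55 (SE 0.19) ran from -5.75 to -10.13 with a pseudocount of 64 or 1. The matrix protein gene Coch differed by -7.19, the heparan sulfate sulfatase gene Sulf1 by -6.05, the thrombin receptor gene Thbd by -5.92 and the cysteine dioxygenase gene Cdo1 by -5.85. Syt7, a vesicle calcium sensor gene, differed by -5.35, the tubulin-binding stathmin gene Stmn2 by -5.26, Arg1, encoding arginase, by -5.18, and Tmem267 by -4.92. Outside these 12, Slco2a1, a prostaglandin transporter gene, differed by -4.88 (-2.90 over its probe sets), with no interaction that passed.

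Hox genes and other positional or lineage genes also differed with and without MG132. Of 19 Hox genes tested, 7 were higher and 5 lower, and the split followed the clusters: 5 of 5 Hoxd genes were lower, with differences from -5.27 to -3.51, whereas 4 of 5 Hoxb genes and 3 of 8 Hoxa genes were higher. Hoxd10 gave 909.5, 1078, 1020.5 and 1038 in treated wild-type and 8.42, 8.24, 11 and 15 in treated knockout cells. The knockout arrays all lay at the bottom of the signal range. Hoxd13 fell from 5505 to 306 on average, a difference of -4.10 (SE 0.091), and Hoxd8 differed by -4.27. Hoxd9 and Hoxd11, named after their values were seen, differed by -3.51 and -4.50. Hoxb6, also named after its values were seen, gave 3.68, 2.27, 45.4 and 35.7 in wild-type and 138, 203, 178 and 165 in knockout cells, so that knockout arrays were all higher (2.50, SE 0.43). The interaction passed for 1 Hox gene above 0 and 2 below 0.

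In the list of fibroblast identity genes (receptors and transcription factors), 3 of 18 were higher and 11 lower, with a median of -0.65. The homeobox gene Prrx2 fell from 2260.3 ± 132 to 579 ± 36.6, a difference of -1.94 (SE 0.059). Pdgfra, encoding a platelet-derived growth factor receptor of fibroblasts and named after its values were seen, gave 2345, 2463, 2559.7 and 2674 against 161, 164, 108 and 139.6. Its wild-type arrays were all far above the knockout arrays, with a difference of -4.0 with MG132 and -4.19 untreated. Thy1, a fibroblast surface glycoprotein gene, moved the other way, from 274 ± 28.2 to 2074 ± 151 (2.85, SE 0.088). In bulk RNA, fewer cells of a kind and less RNA per cell cannot be told apart.

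A second group of genes separated the genotypes mainly under MG132. For 471 genes the knockout was lower with an interaction of the same sign and an untreated difference that did not pass, and for 507 genes it was higher on the same terms. The largest fall was that of Mmp13, the interstitial collagenase-3 gene. With MG132 the wild-type arrays read 1655, 1878, 2228 and 1841, whereas the knockout arrays read 3.33, 7.72, 2.74 and 9.99, against untreated means of 21.3 ± 13.2 and 14.6 ± 7.77. Only the treated wild-type arrays rose above the array median. The difference was -6.45 (SE 0.28), and the interaction -6.19. With a pseudocount of 64 the difference was -4.80, and with 1 it was -8.23. Mmp13 passed the filter of at least 4 arrays above the array median only through the treated wild-type arrays, and it therefore had to differ. The same holds for Krt25, Cxcl2, Ccl20 and Prg4, and Krt14, Krt16, Ccl9, Gzmb and Car6 would not have passed it without those arrays. Nor would the list members Cebpa, Eomes, Gsta2, Mmp10 and Slc7a7. Fgf21 and Kdr, in turn, would not have passed it without the treated knockout arrays. The differences of these genes, and the counts of lists that hold them, are given as a description.

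Next by size came 2 genes of epidermal structures. Cdsn, encoding the skin adhesion protein corneodesmosin, gave 1678, 1765, 1579 and 1949 in treated wild-type and 120.0, 203, 126 and 98.5 in treated knockout cells, with untreated means of 223 and 197. The treated wild-type arrays alone were high (-3.56, SE 0.18, interaction -3.41). Krt25, a hair root sheath keratin gene, gave 364, 409.8, 393 and 355 against 49, 18.4, 2.41 and 15.1 (-3.56, SE 0.37). The knockout arrays were all below the array median, as were the untreated means of 30.3 and 13.7. Krt14, a keratin of basal epidermis, differed by -2.70 (SE 0.33), with means of 471 ± 78.9 and 63.6 ± 35.5, the latter above the untreated knockout mean of 10.4.

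The other 4 of the 8 largest falls of this class were Cxcl2, Ccl20, Prg4 and Gzmb. The neutrophil chemokine gene Cxcl2 gave 256, 284, 335 and 256 in treated wild-type and 23.3, 34, 12.1 and 27.8 in treated knockout cells (-2.91, SE 0.37). All 4 knockout arrays lay below the array median and all 4 wild-type arrays above it. Ccl20, a chemokine gene for CCR-type receptors on lymphocytes and dendritic cells, differed by -2.65 (SE 0.36), with means of 158 ± 37.9 and 11.5 ± 5.05. Prg4, encoding the joint lubricant lubricin, differed by -2.52 (SE 0.33), from 464 ± 71.6 to 67.8 ± 12.2. Gzmb, encoding the serine protease granzyme B, averaged 636 ± 86.4 in treated wild-type cells and ranged from 65.1 to 131 in the knockout (-2.51, SE 0.4), and MG132 raised it by 4.39 in wild-type and 1.65 in knockout cells.

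The list of keratins, serpins and barrier genes, chosen with these results known, held 25 genes, of which 6 had no probe set of a single gene, 7 lay below the filter and 12 were tested. As 3 of the 12, Krt14, Krt16 and Gzmb, would not have passed the filter without the treated wild-type arrays, the counts are a description. Of the 12 tested, 9 were lower, 2 higher and 1 did not pass, with a median of -1.40, and the interaction passed in limma below 0 for 8 and above 0 for 0 (9 and 0 at an unadjusted p under 0.05). Untreated, 5 were higher and 5 lower. The members higher with MG132 included Sprr1a, described above among the largest differences. Krt16, a stress keratin gene named after its values were seen, gave 2337, 2375, 2435 and 2458 against 86.4, 93.7, 93.7 and 104, every wild-type array far above every knockout array (-4.46, SE 0.27). Krt19 differed by -1.26 (SE 0.057). Serpinb9g belongs to a cluster related to the granzyme B inhibitor SERPINB9. It gave 7002, 6932, 7491 and 6475 in treated wild-type and 845, 675, 785 and 591 in treated knockout cells, and 6.53 ± 3.79 and 15.8 ± 6.0 untreated. MG132 raised it in both genotypes, by 8.29 and 4.55, and the treated knockout stayed -3.25 (SE 0.16) from the wild-type. Serpinb9b, named after its values were seen, differed by -1.29. Members of the Serpinb9 cluster and the keratins are similar in sequence, and cross-hybridisation was not tested. The epithelial marker genes Cdh1, Cldn7 and Esrp1 were not above the array median on any array. The summed signal of 11 epithelial markers, Krt14 and Krt19 among them, was 8786 to 9460 on treated wild-type and 4023 to 4252 on treated knockout arrays. Krt19 alone, itself one of the genes described here, averaged 7844 and 3257 of these sums. Their part in these differences was not tested.

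For some genes the genotype difference changed sign with MG132. Such genes numbered 129 among those lower with MG132 and 181 among those higher. After Serpinb9g, the largest falls were those of Dynap (-1.86, SE 0.19, untreated 2.59), of the chemokine genes Ppbp (-1.63, untreated 0.40) and Ccl9 (-1.62, untreated 0.95), and of the semaphorin gene Sema4f (-1.57, untreated 1.01). Dynap gave 1379.8, 1509.7, 1606 and 1275 with MG132 in wild-type and 479, 369, 359.7 and 342 in knockout cells, against untreated means of 33.7 and 269. The order of the genotypes was thus reversed. Serpinb9g, Ccl9 and Sema4f, by contrast, were above the array median on no untreated array, so the direction of their untreated difference is uncertain. In the other direction Fam13c was 1.23 (SE 0.15) with MG132 and -2.07 untreated, and the early response genes Ier2 (0.82 and -0.23) and Klf10 (0.81 and -0.69), Ankrd10 (0.78 and -0.63) and the kinase gene Stk10 (0.77 and -0.78) behaved likewise. With probe sets averaged, the treated differences were 0.53 for Fam13c and 0.38 for Ankrd10.

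Genes described as CHOP targets in endoplasmic reticulum (ER) stress moved in both directions. Of 22 tested, 12 were lower, 4 higher and 6 did not pass, with a median of -0.14; the interaction passed for 7 below 0 and 2 above 0. Car6, encoding a carbonic anhydrase and named after its values were seen, gave 1099, 976, 891 and 929 in treated wild-type and 24.4, 39.9, 59.6 and 32.6 in treated knockout cells. All knockout arrays lay under the array median (-4.20, SE 0.31, untreated -0.90). Tnfrsf10b, the mouse TRAIL death receptor gene, gave 1742, 1697, 1747 and 1663 against 672, 635, 618 and 638. These values did not overlap (-1.40, SE 0.072), the untreated difference was -0.23, and MG132 raised the gene by 1.81 in wild-type and 0.64 in knockout cells. Pmaip1, encoding the BH3-only protein NOXA, averaged 18916 ± 545 in treated wild-type and 5668 ± 605 in treated knockout cells (-1.74, SE 0.074), but was also lower untreated (-1.28). Bcl2l11, encoding the BH3-only protein BIM and named after its values were seen, was -0.51 (SE 0.13) with MG132 and 0.55 untreated. Dnajb9, an ER co-chaperone gene, differed by -0.91 (SE 0.05), without an interaction that passed.

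Ppp1r15a, encoding the GADD34 subunit that directs dephosphorylation of eIF2 and named after its values were seen, gave 7199, 7874, 7189 and 8030.0 in treated wild-type and 5074, 5648, 5086 and 5724 in treated knockout cells (-0.49, SE 0.084). Its arrays did not overlap, yet the interaction of 0.14 did not pass. The 4 higher members included Trib3 (0.26), a pseudokinase that restrains ATF4 and CHOP, Chac1 (0.53), a glutathione-degrading enzyme, and the hormone gene Fgf21 (2.96). In the wider list of apoptosis and death receptor genes, 10 of 27 were higher and 7 lower, or 6 and 10 after subtracting chromosome medians, among them the BCL2-family effector gene Bok (0.76, SE 0.068).

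The integrated stress response and its ATF4 targets were mostly higher in the knockout with MG132. Of 33 genes tested, 22 (read against 30.7% of all genes) were higher, 8 lower and 3 did not pass, and the median was 0.46. Untreated, 21 were higher and 5 lower, so the list leaned the same way without the inhibitor, and the interaction passed for 12 above 0 and 8 below 0. Atf4 itself, named after its values were seen, gave 17332, 15954, 15642 and 16061 against 24840.2, 23831, 25020.1 and 26545. The knockout arrays were all higher, by 0.62 (SE 0.056) with MG132 and 0.59 untreated, and averaging its probe sets gave 0.25, which did not pass (adjusted p = 0.058). Among the highest by adjusted p were Cth, the transsulfuration enzyme that makes cysteine, from 1851 ± 86.9 to 13963 ± 263 (2.91, SE 0.051), the mTORC1 inhibitor gene Ddit4, from 2482 ± 119.5 to 10617 ± 269.7 (2.09, SE 0.065), and Herpud1, an ER-associated degradation gene, from 5801 ± 180.0 to 14788 ± 309.9 (1.35, SE 0.049). The interaction was above 0 for all 3.

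The sequences shown next are the stretches of ISR promoters that hold the letters TGATGNAA, the core of the C/EBP-ATF response element to which ATF4 heterodimers, and in some genes CHOP, are known to bind. They are shown because the genes that carry them did not move together. Both strands were searched in the RefSeq promoters of build GRCm38.p6, 250 bases before to 50 bases after each gene's start, and TGATGNAA followed by the letter T includes the shorter motif TGCAAT when N is C. Of 27 ISR genes with a promoter sequence, 9 held it (33.3%), against 192 of 8962 autosomal genes (2.14%). Each line runs 5′ to 3′ on the gene's strand, 40 bases, with the match in capitals (TTGCATCA and TTACATCA are matches on the other strand), and Slc7a11 has 2 matches.
Asns: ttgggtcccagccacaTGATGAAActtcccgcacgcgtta
Atf3: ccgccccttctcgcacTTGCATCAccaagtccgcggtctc
Chac1: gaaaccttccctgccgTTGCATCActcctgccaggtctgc
Fgf21: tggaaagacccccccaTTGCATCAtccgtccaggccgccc
Herpud1: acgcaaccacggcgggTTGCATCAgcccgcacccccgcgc
Nupr1: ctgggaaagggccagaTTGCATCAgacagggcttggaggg
Pck2: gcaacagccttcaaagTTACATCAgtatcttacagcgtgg
Slc7a11: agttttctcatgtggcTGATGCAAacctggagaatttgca
Slc7a11: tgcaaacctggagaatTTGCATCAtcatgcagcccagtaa
Trib3: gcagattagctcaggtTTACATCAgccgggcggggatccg

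The windows lie on chromosome and position as follows: Asns at chr6:7693209-7693248 (reverse strand), Atf3 at chr1:191183420-191183459 (reverse strand), Chac1 at chr2:119351033-119351072 (forward strand), Fgf21 at chr7:45615606-45615645 (reverse strand), Herpud1 at chr8:94386301-94386340 (forward strand), Nupr1 at chr7:126625557-126625596 (reverse strand), Pck2 at chr14:55540147-55540186 (forward strand), Slc7a11 at chr3:50443656-50443695 (reverse strand), Slc7a11 at chr3:50443637-50443676 (reverse strand) and Trib3 at chr2:152344023-152344062 (reverse strand). Fgf21 and Herpud1 were higher in the treated knockout with an interaction above 0 (1.73 and 0.68), as was the mitochondrial gluconeogenic enzyme gene Pck2 (difference 0.52, interaction 0.58). Fgf21 gave 59.2, 57.3, 122 and 115 in wild-type and 817, 764, 732 and 732 in knockout cells, all knockout arrays being higher. Without the treated knockout arrays Fgf21 would not have passed the filter, so its values are a description. Asns, encoding asparagine synthetase, and Chac1 were higher (0.58 and 0.53) with an interaction below 0 (-0.23 and -0.91), the untreated differences being larger. Trib3 was higher by 0.26 (SE 0.072) with no interaction that passed, and Nupr1, a stress-induced chromatin protein gene, was at -0.10, which did not pass (adjusted p = 0.12).

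The remaining genes with the motif were lower. Slc7a11, the cystine-glutamate exchanger gene, gave 2122, 1761, 2217 and 2048 in treated wild-type and 1234, 1063, 1100.2 and 1123 in treated knockout cells. No arrays overlapped, and the difference was -0.84 (SE 0.12) with MG132 and 0.29 untreated. Atf3, a bZIP gene induced by ATF4, gave 9943, 9614, 10528 and 9597 against 7215, 7236, 7075 and 7792. It was again lower in every knockout array (-0.44, SE 0.061), whereas untreated it was higher (0.32). MG132 raised Atf3 by 4.36 in wild-type and 3.61 in knockout cells. Of the ISR members without the motif in this window or without a promoter sequence, Vldlr, a lipoprotein receptor gene named after its values were seen, was -1.62 (SE 0.092) with MG132 and -3.49 untreated, and rose with MG132 by 1.95 in the knockout, while the wild-type change of 0.08 did not pass.

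**Figure D4:**
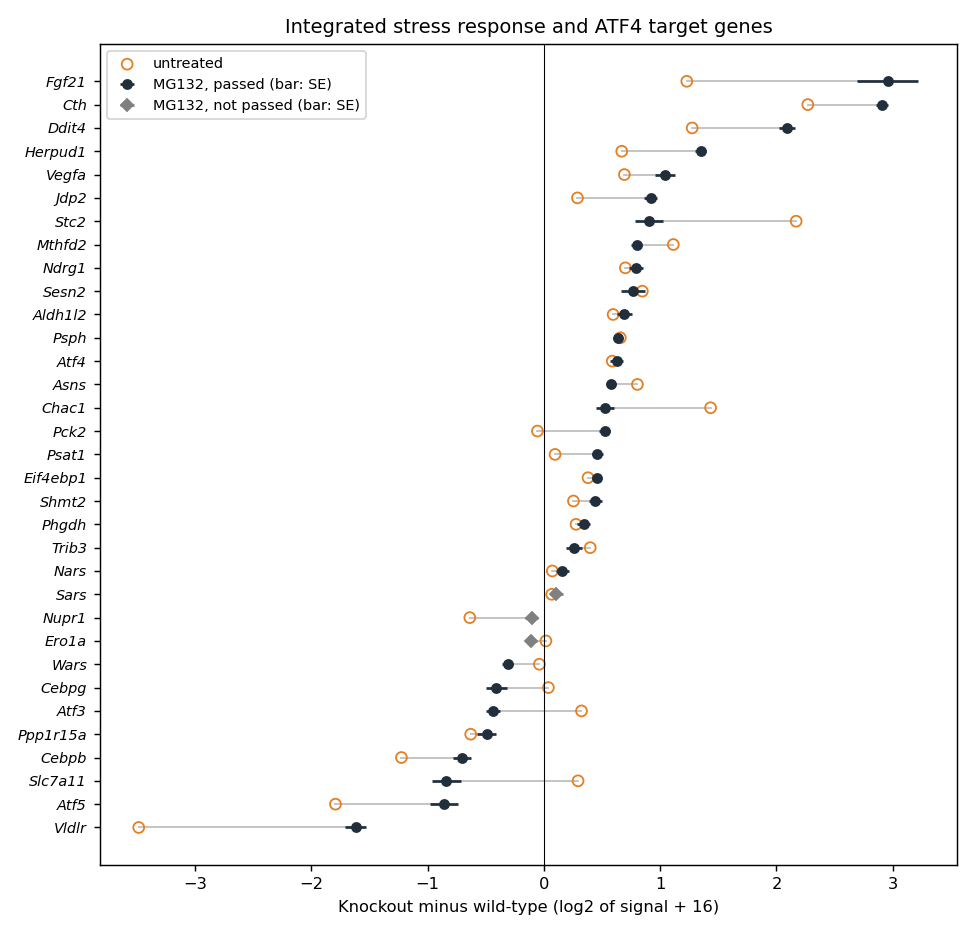
Knockout minus wild-type difference on the log2(signal + 16) scale for 33 integrated stress response (ISR) genes including ATF4 targets, with MG132 (filled, bar: SE) and untreated (open circles). Members run from Vldlr at -1.62 to Fgf21 at 2.96, and 22 of 33 were higher with MG132.

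The same letters occur in the promoters of genes that were lower in the treated knockout, at shares near that of all genes: 13 of the 526 genes at least 2-fold lower with a promoter sequence held TGATGNAA (2.47%), as did 11 of 353 at least 2-fold higher (3.12%). TGCAAT, the C/EBP part of the composite site described for CHOP, was in 7.79% of the promoters of genes at least 2-fold lower, 3.97% of those at least 2-fold higher and 4.89% of all. TGANTCA, the AP-1 motif, was in 7.22%, 6.8% and 4.89%. These shares are descriptions of letters in a window, not sites. The 5 largest falls with an interaction below 0 and a TGATGNAA match had these stretches, shown to set them beside the ISR genes.
Sfn: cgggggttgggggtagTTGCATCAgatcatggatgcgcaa
Ap4s1: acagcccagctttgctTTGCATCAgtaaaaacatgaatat
Ptgr1: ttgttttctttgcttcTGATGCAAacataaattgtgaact
Lekr1: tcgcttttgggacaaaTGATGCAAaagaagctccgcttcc
Slc49a4: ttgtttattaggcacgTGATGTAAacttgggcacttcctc

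Their positions are Sfn at chr4:133602251-133602290 (reverse strand), Ap4s1 at chr12:51690736-51690775 (forward strand), Ptgr1 at chr4:58987250-58987289 (reverse strand), Lekr1 at chr3:65666162-65666201 (forward strand) and Slc49a4 at chr16:35769550-35769589 (reverse strand). Sfn, encoding the 14-3-3 sigma protein of epithelia, gave 925, 771, 743 and 1069.9 in treated wild-type and 78.6, 21.4, 7.61 and 31.3 in treated knockout cells, with knockout arrays all below the array median (-4.31, SE 0.33). Ptgr1, an enzyme gene of prostaglandin and leukotriene breakdown, gave 9277, 8524, 9440.3 and 8922 against 3630.5, 3807, 3420.1 and 3528. Every knockout array was lower. MG132 raised it by 0.95 in wild-type cells, while the knockout change of -0.01 did not pass, and the difference went from -0.36 to -1.33. Ap4s1, an adaptor complex subunit gene, differed by -1.54, Lekr1 by -1.05 and Slc49a4 by -0.90. The Lekr1 interaction of -0.96 did not pass without WT_untreated replicate 4 (-0.83) or KO_MG132 replicate 2 (-0.86).

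Among C/EBP and ATF family factors, 13 of 28 were lower and 8 higher. The lower ones included Ddit3, the targeted gene itself, and Cebpa, which would not have passed the filter without the treated wild-type arrays. Cebpb, the dimer partner of CHOP named after its values were seen, gave 9592, 10305, 8695 and 10152 in treated wild-type and 5542, 6235, 5354 and 6707 in treated knockout cells. The knockout was lower on every array (-0.70, SE 0.079), by less than untreated (-1.23). Nfe2l2, encoding NRF2, was lower with a tight spread, 7590 ± 218 against 4868 ± 116 (-0.64, SE 0.044), and Jdp2, an AP-1 repressor gene, was higher by 0.92 (SE 0.055), or 0.40 without passing when probe sets were averaged.

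Nuclear factor kappa B (NF-kB) genes and chemokines split. Of 24 tested, 10 were higher and 9 lower with MG132, and 13 were higher and 4 lower untreated. The interaction passed for 4 above 0 and 14 below 0, with a median of -0.58. As 3 of the 24, Ccl20, Ccl9 and Cxcl2, would not have passed the filter without the treated wild-type arrays, the counts are a description. Ccl2, the monocyte chemoattractant gene, illustrates the difference and was named after its values were seen. It gave 4933, 4275, 4453 and 4229 in treated wild-type and 10281, 10639, 9549 and 9917 in treated knockout cells, the knockout being higher on every array (1.17, SE 0.098). Untreated it was further apart (2.93), and MG132 raised it by 3.52 in wild-type and 1.76 in knockout cells. Tnfaip3, encoding the NF-kB feedback inhibitor A20, and the subunit gene Relb, both named after their values were seen, were lower with MG132 (-1.10, SE 0.078 and -0.58, SE 0.12) and higher untreated (0.27 and 0.62). Cxcl1 (3.24, SE 0.092), Cxcl12 (1.49, SE 0.052) and the adhesion molecule gene Vcam1 (1.62, SE 0.074) were the members with the smallest adjusted p, all higher. The Cxcl1 interaction, 0.37, did not pass when any one of 13 of the 16 arrays was left out.

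Secreted growth factors and bone morphogenetic protein (BMP) targets had a median of -1.18. Of 36 tested, 23 were lower and 11 higher, and the interaction passed for 18 below 0 and 5 above 0. BMPs signal through receptor kinases to SMAD factors, which induce the ID inhibitors of basic helix-loop-helix factors. The ligand gene Bmp4 gave 4954, 5393, 5612 and 5574 in treated wild-type and 424, 433, 327 and 330.3 in treated knockout cells. The genotypes stood far apart (-3.78, SE 0.08, untreated -2.66). Bmp2, named after its values were seen, differed by -3.76 (SE 0.21), with means of 551 ± 86.6 and 25.8 ± 7.16. The secreted BMP antagonist gene Grem1 gave 5375, 5555, 4938 and 5163 against 521, 587, 558 and 586. It too was far lower in every knockout array (-3.19, SE 0.076), and MG132 raised it by 2.01 in wild-type and 0.29 in knockout cells. The 4 ID genes, named after their values were seen, were all lower: Id1 by -1.97 (SE 0.065), Id2 by -1.75 (SE 0.068), Id3 by -1.53 (SE 0.053) and Id4 by -2.10 (SE 0.16). For Id1, Id2 and Id3 the interaction was below 0 (-1.09, -0.57 and -0.57), and for Id4 it did not pass. Igfbp7, an insulin-like growth factor binding protein gene, went the other way (3.43, SE 0.075), or 1.62 when probe sets were averaged.

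The extracellular matrix followed a similar course. Of 31 collagen and matrix genes, 16 were lower and 11 higher, and the interaction passed for 15 below 0 and 2 above 0. Fbln5, an elastic fibre gene, differed by -1.32 (SE 0.044), but its interaction was above 0 (0.37). The periosteal matrix gene Postn (3.23, SE 0.069) and the tenascin-C gene Tnc (2.68, SE 0.086) were higher by amounts close to those untreated (3.37 and 2.90). Among matrix proteases and their inhibitors, 9 of 16 were lower and 3 higher (median -0.73). As Mmp10 and Mmp13 would not have passed the filter without the treated wild-type arrays, these counts are a description. After Mmp13, the inhibitor gene Timp3 had the smallest adjusted p, at 18755, 18327, 20882 and 20512 in wild-type and 3746, 3857, 2979 and 3568 in knockout cells. Both genotypes were raised by MG132 (1.74 and 1.17), and the knockout stayed lower throughout (-2.47, SE 0.071). Plat, the tissue plasminogen activator gene, was higher (1.33, SE 0.065), or 0.33 without passing when probe sets were averaged.

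Contractile and serum response genes were more often higher, 11 of 19 against 2 lower, with a median of 0.37 and an interaction above 0 for 8 and below 0 for 1. Beyond Ankrd1, the calponin gene Cnn1 differed by 2.09 (SE 0.098) and the myosin light chain gene Myl9 by 1.46 (SE 0.068). Myl9 gave 1859, 1806, 1652 and 1843 in treated wild-type and 5493, 4441, 5090.2 and 4864 in treated knockout cells, and its untreated difference was 0.72. Of 26 AP-1 and immediate early genes, 10 were higher and 9 lower with MG132, against 5 higher and 15 lower untreated, and the interaction passed for 12 above 0 and 5 below 0. The phosphatase gene Dusp4 was higher (3.11, SE 0.16), and Dusp6, its relative that acts on ERK, was lower (-1.16, SE 0.08, untreated 0.88). The reprogramming factor gene Klf4 was lower (-1.55, SE 0.059). Egr1, named after its values were seen, was at 0.16 with MG132, which did not pass (adjusted p = 0.13), and at -1.20 untreated, and MG132 lowered it to 602 and 674 in both genotypes.

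Other genes were higher with MG132, with an interaction of the same sign and no untreated call. Their largest differences were smaller than the largest falls. Most of the 8 largest falls would not have passed the filter without the treated wild-type arrays, so this contrast in size is a description. Csrnp1, a nuclear protein gene induced by axin, had the largest difference among the higher genes. It gave 364, 416, 611 and 452 in treated wild-type and 1361, 1376, 1430.0 and 1584 in treated knockout cells. The arrays did not overlap (1.63, SE 0.12, untreated 0.14), but the mean over its 2 probe sets was 0.53 and did not pass. Mipol1 differed by 1.39 (SE 0.17) and also lost its call when probe sets were averaged (0.15). Prune2 (1.15, SE 0.17) turned to -0.88 over its 4 probe sets, so that its direction depends on the probe set. Map3k4, a stress kinase gene, differed by 1.25 (SE 0.097), the sialyltransferase gene St3gal2 by 1.09 (SE 0.11), the centromere loading gene Oip5 by 1.04 (SE 0.13) and the phosphatase gene Ptpn3 by 1.03 (SE 0.15). Kdr, the VEGF receptor gene, differed by 1.21 (SE 0.42), and its call was lost without WT_MG132 replicate 3 (0.77) or KO_MG132 replicate 3 (1.01). Without the treated knockout arrays Kdr would not have passed the filter.

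Mitotic genes differed by small amounts. With MG132, 15 of 27 were higher and 4 lower (median 0.18), against 6 higher and 10 lower untreated, and the interaction passed in limma for 13 above 0 and 0 below 0 (15 and 1 at an unadjusted p under 0.05). The treated difference counts were 18 higher and 1 lower after centring each array on its median. Bub1b, a spindle checkpoint kinase gene, gave 2076, 1938, 2013 and 1981 in treated wild-type and 3549, 3561, 3758 and 3397 in treated knockout cells. The knockout was higher on every array (0.83, SE 0.053, untreated 0.27). The kinesin genes Kif23 and Kif2c differed by 0.71 (SE 0.047) and 0.52 (SE 0.04). Averaged over probe sets, Kif2c was at 0.23. MG132 lowered Kif2c by 0.94 in wild-type and by 0.32 in knockout cells. Among replication and nucleotide genes, 11 of 32 were higher and 6 lower. The licensing factor gene Cdt1 (0.75, SE 0.046), the GINS subunit gene Gins2 (0.78, SE 0.054) and the thymidine kinase gene Tk1 (0.69, SE 0.051, untreated -0.06) led, and Gins2 was at 1.17 without probe sets of shared or similar sequence. Of 16 G1 cyclin and CDK inhibitor genes, 4 were higher and 4 lower, among them Ccnd2 (1.13, SE 0.054) and Ccnd1 (-0.42, SE 0.058), encoding cyclins D2 and D1, and the pocket protein gene Rbl2 (-0.73, SE 0.096).

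The machinery of protein breakdown, the direct object of MG132, differed little. Of 37 proteasome subunit and assembly genes, 17 were higher and 2 lower, with a median of 0.12. After centring each array on its median, 25 were higher and 1 lower, with a median of 0.22. Untreated, 25 were higher and 1 lower, and the interaction passed in limma for 4 below 0 and 0 above 0 (6 and 2 at an unadjusted p under 0.05). Psmd7, a regulatory particle subunit gene, gave 13464, 11489, 12197 and 12331 in treated wild-type and 17129.5, 16785, 17538 and 18750.2 in treated knockout cells (0.51, SE 0.058, or 0.30 over its probe sets). All knockout arrays were higher, as they were for the core subunit genes Psma5 (0.31, SE 0.048) and Psma2 (0.32, SE 0.057). Of 16 ubiquitin and p97 genes, 8 were higher and 4 lower, including the zinc-finger ubiquitin-binding gene Zfand5 (0.64, SE 0.045), the deubiquitinase gene Uchl1 (1.27, SE 0.1) and the proteasomal deubiquitinase gene Usp14 (0.33, SE 0.041), which was -0.03 over its 4 probe sets. Zfand5 was at 0.22 without probe sets of shared or similar sequence.

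Heat shock and cytosolic chaperone genes were lower for 9 of 26 and higher for 4. The co-chaperone gene Dnajb4 gave 18823, 16898, 19413 and 16562 in treated wild-type and 8135, 7859, 7504 and 7693 in treated knockout cells. Every knockout array was below every wild-type array (-1.20, SE 0.059), and MG132 raised the gene in both (1.44 and 1.03). The small heat shock gene Hspb8 was lower with MG132 (-0.58, SE 0.055) and higher untreated (0.23), and the HSP110-family gene Hspa4l was higher (0.53, SE 0.046). Over their probe sets these values were -0.31 and 0.29, and Hspa4l was at 0.33 without probe sets of shared or similar sequence. The list's direction rests on the scaling, as median centring gave 9 higher and 7 lower. ER chaperone and ER-associated degradation genes were divided, with 8 of 25 higher and 8 lower, or 13 and 4 after median centring. Herpud1 and Sel1l (-1.0, SE 0.055), 2 genes of one ubiquitin ligase complex, moved in opposite directions. Autophagy and lysosome genes were lower for 7 of 20 and higher for 3, but 4 and 4 after median centring, and included Atg3 (-0.70, SE 0.043), which conjugates LC3, and the cathepsin genes Ctsd (-0.75, SE 0.051) and Ctsb (-0.47, SE 0.047). Averaging gave -1.12 for Atg3. Of 23 NRF2 antioxidant genes, 9 were higher and 5 lower, or 4 and 9 after subtracting chromosome medians. The glutathione transferase gene Gsta4 led (3.54, SE 0.11), with Osgin1 (1.06, SE 0.11) and the superoxide dismutase gene Sod1 (0.45, SE 0.049).

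In amino acid metabolism, 11 of 19 cytosolic aminoacyl-tRNA synthetase genes were higher and 4 lower, the latter including Mars1. Farsa, a phenylalanyl-tRNA synthetase subunit gene, differed by 1.05 (SE 0.07), but by 0.22 without passing when probe sets of shared or similar sequence were left out and by 0.44 when probe sets were averaged. Gars, for glycyl-tRNA, differed by 0.36 (SE 0.037). Of 20 amino acid transporter genes, 10 were higher and 5 lower, and Slc38a4 (1.27, SE 0.075) and the cationic amino acid transporter gene Slc7a1 (0.58, SE 0.045) followed Slc38a1. The Slc7a1 value was 0.16 over all its probe sets and did not pass.

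Other metabolic lists leaned towards the knockout by small amounts. Cholesterol and fatty acid synthesis genes were higher for 14 of 24 and lower for 4, such as Msmo1 (0.75, SE 0.052) and Sqle (0.54, SE 0.04) of the sterol pathway, against -0.59 (SE 0.054) for the sterol transfer gene Stard4. Oxidative phosphorylation genes were higher for 17 of 28 and lower for 4, with Sdhd (0.78, SE 0.052), Cox7a2 (0.54, SE 0.048) and Cox6c (0.49, SE 0.049) leading. The lean was also present untreated, where 21 were higher and 2 lower. Of 17 glycolysis and pentose phosphate genes, 8 were higher and 4 lower, among them the glucose transporter gene Slc2a1 (1.18, SE 0.054, untreated 0.30), the lactate dehydrogenase gene Ldhb (1.71, SE 0.15) and the pyruvate dehydrogenase kinase gene Pdk1 (-1.70, SE 0.078). The value of Ldhb was 2.74 over its probe sets. Of 17 cytosolic ribosomal protein genes, 3 were higher, 2 lower and 12 did not pass. This lean rests on the scaling, with 2 higher and 6 lower under quantile normalization and 8 higher and 1 lower after median centring. Rplp0 and Rpl37 differed by 0.28 and 0.40, and Rps6 by -1.44 (SE 0.054), a gene of 2 probe sets.

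Immune lists held few large differences. Of 14 interferon response genes, 5 were higher and 5 lower, with Bst2 at -0.86 (SE 0.11), the oligoadenylate synthetase gene Oas1a at -1.31 (SE 0.31) and Ifit3 at -0.71 (SE 0.17). Of 9 MHC class I and immunoproteasome genes, 4 were higher and 1 lower, with Psmb10 at 0.74 (SE 0.097), B2m at 0.25 (SE 0.045) and the peptide transporter gene Tap2 at 1.09 (SE 0.3). Of 21 p53 target and GADD45 genes, 8 were higher and 6 lower. Gadd45b differed by 1.09 (SE 0.057), the apoptosis-linked gene Perp by -1.89 (SE 0.12) and Trp53inp1, a p53-induced nuclear protein gene, by -1.35 (SE 0.085), the last with an untreated difference of 0.09.

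**Figure D5:**
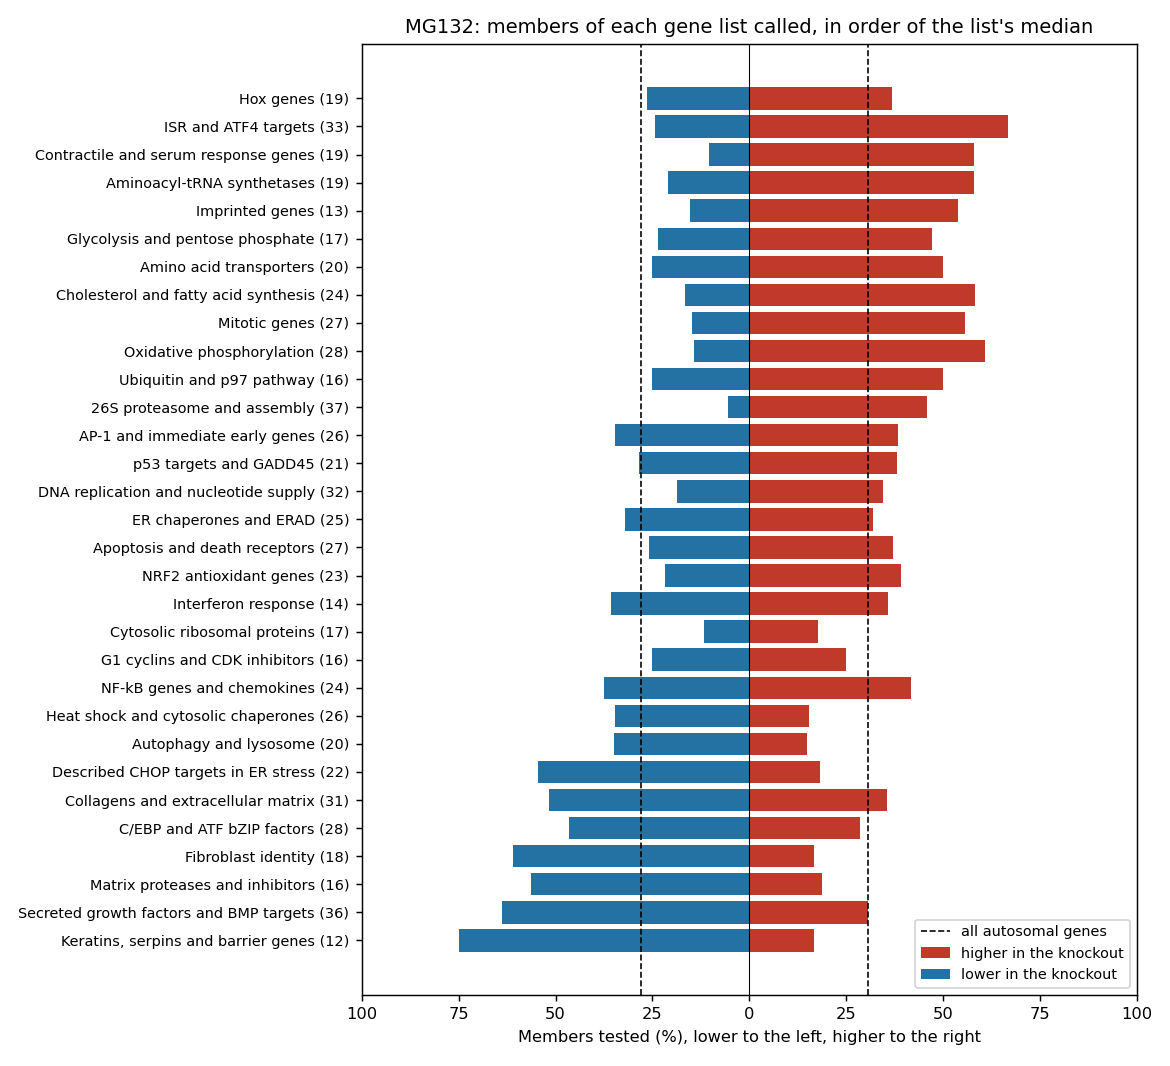
Percentage of tested members (number in brackets) of each gene list with at least 10 tested members called higher (right) or lower (left) in MG132-treated knockout cells, in order of the list's median difference. Dashed lines mark the shares over all autosomal genes, 30.7% higher and 28% lower; keratins, serpins and barrier genes had the lowest median and Hox genes the highest.

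Markers of other cell types were mostly low. Of leukocyte markers, Ptprc, Aif1, Lyz2, Itgam, Cd3e and Tyrobp were above the array median on no array, while Cd14 was higher (2.69, SE 0.15) and Cd68 lower (-0.78, SE 0.19) in the treated knockout. Of endothelial markers, Pecam1, Cdh5, Tek, Tie1, Vwf and Emcn were above it on no array. Neural markers differed: 3 of 8 tested were higher and 3 lower, or 1 and 3 after subtracting chromosome medians. The lower ones were Stmn2, the pluripotency and neural progenitor factor gene Sox2 (-3.62, SE 0.086) and the dendritic protein gene Map2 (-2.38, SE 0.11). The higher ones, named after their values were seen, were the intermediate filament gene Nes, from 478 to 692 on average (0.56, SE 0.22), the tubulin gene Tubb3, from 690.1 to 1096 (0.65, SE 0.18), and the adhesion molecule gene Ncam1, from 452 to 718 (0.65, SE 0.12). The summed signal over 9 neural markers was 8192 to 8723 on treated wild-type and 3274 to 3627 on treated knockout arrays, and its part in the other results was not tested. Of 4 fat cell markers 3 were lower, including Pparg (-1.62, SE 0.1) and Fabp4 (-1.49, SE 0.18), and Lpl was higher (2.04, SE 0.39). The other lower marker, Cebpa, would not have passed the filter without the treated wild-type arrays. Fabp4 was at -0.83 over its probe sets, and Lpl at 1.12 and 3.20 with a pseudocount of 64 and 1. Of 6 muscle markers 1 was lower, Mylpf, by -0.53 (SE 0.2), a call lost under quantile normalization (-0.44), median centring (-0.43) and subtraction of chromosome medians (-0.37), with no filter or only the 2 groups compared (both -0.53), and without WT_MG132 replicate 1 (-0.51), WT_MG132 replicate 4 (-0.47) or KO_MG132 replicate 2 (-0.36). The 3 cartilage and bone markers tested did not pass, and of 2 placental and red blood cell markers the fetal protein gene Afp was higher (0.72, SE 0.19). The Afp call was lost with a pseudocount of 1 (0.75), and the value was 1.14 without probe sets of shared or similar sequence.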

How the data were processed

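Whole-genome 3' expression arrays were hybridised with RNA from 16 culture plates. The authors deposited 1 linear signal intensity per probe set and array, made with MAS5 per the submitters' processing notes, with its version not given in the sources used here. Tested on the file, each array's trimmed mean (2% off each end) was 1000.

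Of 45101 probe sets, 34945 named 1 gene in the platform annotation and 34741 matched a RefSeq gene. Each gene was represented by its brightest probe set, judged by the mean of all arrays, and genes above the array median on at least 4 arrays were kept (11457, of which 11047 autosomal). log2(signal + 16) was computed here from the deposited intensities and analysed with limma (version 3.58.1, R version 4.3.3). The model held a mean for each of the 4 groups, which left 12 residual degrees of freedom, and a mean-variance trend, and p-values were adjusted by Benjamini-Hochberg with a threshold of 0.05. Where the knockout was at noise, the fitted difference depends on the pseudocount.

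Gene lists and members were chosen with earlier results of these data known. The text names the 12 largest autosomal differences in each direction without overlapping arrays, the 8 largest with an interaction of the same sign and no untreated call, the 5 largest with an untreated call of the same sign and no interaction, the 5 largest with an untreated call of opposite sign, Ddit3 and Atf5, up to 3 members per list by adjusted p, and the neighbours of Ddit3 that passed. Genes with a printed promoter match were added by a rule on the match. Car6, Cebpb, Ppp1r15a, Vldlr, Atf4, Krt16, Serpinb9b, Id1 to Id4, Bmp2, Pdgfra, Hoxd9, Hoxd11, Hoxb6, Egr1, Ccl2, Relb, Tnfaip3, Nes, Tubb3, Ncam1 and Bcl2l11 were named after their values were seen.

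Alternatives were other pseudocounts, normalizations, filters, probe set rules and fits, a replicate block, subtraction of chromosome medians (chosen after seeing the data) and each array left out. On simulated data with 11457 genes, the treated comparison recovered 79 of 100 changes of 0.5 and 92 of 100 changes of 1 on the log2 scale, with 7 false calls. Noise there was Gaussian and independent between genes, and every unchanged gene had the same mean in all groups. In the data 58.8% of autosomal genes were called, so these counts need not carry over.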

Additional observations from a re-analysis of the deposited data

Results flagged for a closer look

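For 118 of the 187 named genes the genotype difference itself differed between MG132-treated and untreated cells (limma interaction, Benjamini-Hochberg adjusted p below 0.05). It was above 0 for 52 and below 0 for 66, meaning higher or lower in the treated knockout than the untreated difference would give. Some of these genes were named because their interaction passed or because their untreated call had the opposite sign. The share among named genes is therefore raised by the choice, and over all autosomal genes the interaction passed for 28.3%. No explanation was tested. The AP-1 and immediate early genes list gave -2.04 for Dusp6, 0.86 for Klf4, 1.05 for Ier2 and 1.35 for Egr1. In the amino acid transporters list it was -1.13 for Slc7a11 and -0.62 for Slc38a1. Members of the apoptosis and death receptors list had -1.17 for Tnfrsf10b, -1.06 for Bcl2l11 and -0.46 for Pmaip1. The autophagy and lysosome list gave -0.21 for Atg3. In the C/EBP and ATF bZIP factors list it was -2.81 for Ddit3, -0.76 for Atf3, 0.32 for Nfe2l2, 0.52 for Cebpb, 0.63 for Jdp2 and 0.93 for Atf5. Members of the cholesterol and fatty acid synthesis list had -0.24 for Stard4 and 0.30 for Msmo1. The collagens and extracellular matrix list gave 0.37 for Fbln5. In the contractile and serum response genes list it was 0.75 for Myl9. Members of the cytosolic ribosomal proteins list had -0.27 for Rps6. The DNA replication and nucleotide supply list gave 0.25 for Cdt1 and 0.75 for Tk1. In the described CHOP targets in ER stress list it was -3.30 for Car6, -0.91 for Chac1 and 1.73 for Fgf21. Members of the ER chaperones and ERAD list had 0.68 for Herpud1. The fibroblast identity list gave -0.64 for Thy1 and -0.38 for Prrx2. In the G1 cyclins and CDK inhibitors list it was 0.26 for Ccnd1 and 0.53 for Ccnd2. Members of the glycolysis and pentose phosphate list had 0.88 for Slc2a1. The heat shock and cytosolic chaperones list gave -0.81 for Hspb8, -0.41 for Dnajb4 and 0.37 for Hspa4l. In the ISR and ATF4 targets list it was -0.23 for Asns, 0.53 for Nupr1, 0.58 for Pck2, 0.64 for Cth, 0.82 for Ddit4 and 1.86 for Vldlr. Members of the imprinted genes list had -1.91 for Ndn. The interferon response list gave -1.37 for Oas1a and -0.56 for Bst2. In the keratins, serpins and barrier genes list it was -3.74 for Serpinb9g, -3.53 for Krt16, -2.74 for Gzmb, -2.66 for Krt14, -2.06 for Sfn, -1.61 for Serpinb9b, -1.49 for Sprr1a and -0.52 for Krt19. Members of the markers of endothelium list had 1.82 for Kdr. The markers of macrophage and leukocyte list gave 0.98 for Cd14. In the markers of neural cells list it was -0.46 for Sox2 and 0.92 for Stmn2. Members of the markers of placenta and red blood cells list had -2.03 for Afp. The matrix proteases and inhibitors list gave -6.19 for Mmp13, -0.58 for Timp3 and -0.40 for Plat. In the mitotic genes list it was 0.51 for Kif23, 0.55 for Bub1b and 0.62 for Kif2c. Members of the NF-kB genes and chemokines list had -2.57 for Ccl9, -2.55 for Ccl20, -2.36 for Cxcl2, -1.76 for Ccl2, -1.37 for Tnfaip3, -1.20 for Relb, 0.37 for Cxcl1, 0.57 for Vcam1 and 0.60 for Cxcl12. The NRF2 antioxidant genes list gave -0.55 for Gsta4. In the oxidative phosphorylation list it was 0.25 for Cox7a2 and 0.38 for Sdhd. Members of the secreted growth factors and BMP targets list had -1.72 for Grem1, -1.12 for Bmp4, -1.09 for Id1, -0.84 for Igfbp7, -0.57 for Id2 and -0.57 for Id3. The ubiquitin and p97 pathway list gave -0.83 for Uchl1 and 0.53 for Zfand5. Outside the lists it was -4.45 for Dynap, -3.41 for Cdsn, -2.93 for Krt25, -2.74 for Prg4, -2.58 for Sema4f, -2.02 for Ppbp, -1.86 for Tnfrsf11b, -1.65 for Thbd and -1.503 for Arg1. Genes in no list gave -0.96 for Ptgr1, -0.96 for Lekr1, -0.69 for Tfpi, -0.69 for Tmem267, -0.61 for Nemp1, -0.53 for Crabp1, -0.41 for Ap4s1, -0.32 for Slc49a4 and 0.32 for Arhgef25. Other genes in no list had 0.32 for Dctn2, 0.36 for Stat6, 0.44 for Coch, 0.68 for Ptpn3, 0.84 for St3gal2, 0.99 for Prune2, 0.99 for Cdo1, 1.09 for Map3k4 and 1.14 for Oip5. The remaining values were 1.21 for Mipol1, 1.42 for Ankrd10, 1.49 for Csrnp1, 1.503 for Klf10, 1.56 for Stk10 and 3.30 for Fam13c. Members of the p53 targets and GADD45 list had -1.43 for Trp53inp1 and 0.40 for Gadd45b.

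Some signals stood apart from the other 3 arrays of their group. Of 374 groups of 4 arrays tested with Dixon's ratio, 16 had such an array, and chance gives about 1 in 20. Ccnd2 was 7666 in treated knockout replicate 4, against 6519 to 6706. Ddit4 was 2305 in treated wild-type replicate 2, against 2514 to 2554. Dusp4 was 169 in treated wild-type replicate 3, against 204 to 210.4. Egr1 was 602 in treated knockout replicate 4, against 692 to 705. Igfbp7 was 326 in treated wild-type replicate 1, against 398 to 410.3. Lekr1 was 84.8 in treated wild-type replicate 4, against 104 to 108. Mars1 was 8272 in treated wild-type replicate 2, against 8768 to 8855. Mycn was 36520 in treated wild-type replicate 3, against 31890 to 32630. Ndn was 1319 in treated knockout replicate 3, against 1073 to 1111. Nemp1 was 262 in treated knockout replicate 1, against 400.5 to 420.5. Nfe2l2 was 5041 in treated knockout replicate 4, against 4796 to 4826. Ptpn3 was 215 in treated wild-type replicate 4, against 119 to 131. Sdhd was 6060 in treated knockout replicate 2, against 6428 to 6433. Sqle was 11660 in treated knockout replicate 3, against 11840 to 11880. Syt7 was 3151 in treated wild-type replicate 4, against 2633 to 2709. Tdrkh was 837 in treated knockout replicate 2, against 1238 to 1300.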

How the results depend on the processing

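Of the 187 named genes, 170 kept the call and direction of the treated difference under every alternative in which they were tested, which was all 28 for 110 of them and 26 or 27 for the rest. Nes, Tubb3 and Ncam1 are not counted among the 187, and their calls were not followed singly through the alternatives. Of the 28, 16 left out 1 array each. With an array left out, the genes called with MG132 numbered 3180 to 3491 higher and 2928 to 3173 lower, and at least 2-fold 469 to 496 and 669 to 700. Untreated counts were 2937 to 3170 higher and 2763 to 2958 lower, and interaction counts 1418 to 1590 above and 1435 to 1618 below 0. Centring each array on its median left 685 interactions below 0, of 1558. The stricter filter, which tests fewer genes, left 280 genes at least 2-fold higher and 446 lower.

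Averaging probe sets reversed Prune2 (-0.88), Usp14 (-0.032; its interaction -0.21) and the interaction of Rps6 (0.22). Leaving out probe sets of shared or similar sequence reversed Arhgef25 (0.041) and the interactions of Slc38a1 (0.20), Cxcl1 (-0.11) and Afp (0.29). The cause was not tested. Called differences that kept their call but moved by over 1.5 times were, after subtracting chromosome medians, those of Gars (0.23), Psmd7 (0.25), Psma5 (0.18), Psma2 (0.52), Psmb10 (0.48), Cdt1 (0.49), Ccnd1 (-0.26), Msmo1 (0.496), Sqle (0.33), Rpl37 (0.19), Cox7a2 (0.33), Cox6c (0.28), Atf3 (-0.22) and Atf4 (0.41), with a pseudocount of 64 those of Ccl20 (-1.54), Tap2 (0.72), Krt7 (-0.94), Lpl (1.12), Lekr1 (-0.66) and Hoxb6 (1.48). Those moved by averaging probe sets or by leaving out shared ones stand beside the genes. Interaction calls of Crabp1, Tfpi and Coch were lost without any one of several arrays.

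Same-numbered plates did not deviate together (correlations of 0.0441, -0.0351, 0.0188 and 0.0235 between treated genotypes). With the replicate number as a block, 3486 genes were higher and 3161 lower. The number of arrays and the lack of detection calls limit the precision at low signal.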

Other observations

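Imprinted genes are expressed from one parental allele. Of 13 tested, 7 were higher and 2 lower in the treated knockout, against 7 and 3 untreated. Ndn, encoding the growth suppressor necdin, gave 127, 99.4, 116 and 109.6 in treated wild-type and 1104, 1111, 1319 and 1073 in treated knockout cells, with no overlap and a difference of 3.18 (SE 0.1), or 6.16 without probe sets of shared or similar sequence. Dlk1, a preadipocyte and progenitor surface protein gene, was higher by 3.31 (SE 0.17), or 1.98 over its probe sets. Plagl1, a zinc finger gene, was lower, at 11798, 13758, 12576 and 12499.6 against 2064, 2227, 2004 and 1867 with a difference of -2.62 (SE 0.066), or -1.74 over its probe sets.

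Mycn lies on chromosome 12. Of the 10 tested genes on either side of it, 14 were lower and 2 higher. On the whole chromosome 188 of 406 tested genes were lower and 65 higher, against 28% and 30.7% of all autosomal genes. The largest fall among the neighbours was -2.04, against -7.79 for Mycn, or -2.44 over its probe sets.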
